A study of Mus musculus with 11 samples.

Results

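The genes described here encode the nuclear-encoded subunits and assembly factors of respiratory complexes II, III and IV, of cytochrome c and of complex V, the ATP synthase. They were chosen by symbol: Cycs, Cyc1, and every gene whose platform symbol begins with Sdha, Sdhb, Sdhc, Sdhd, Uqcr, Atp5 or Cox and a digit, each read from its brightest probe set. This gave 60 of the 18193 genes on the array. After a filter on dim genes 58 of the 60 were tested, among 15622 genes in all. The complex IV isoform genes Cox6b2 and Cox7b2 lay below the filter, and no test was made of them. The tested members were 4 subunits of complex II, 9 of complex III with cytochrome c1, cytochrome c itself, 15 subunits of complex IV, 17 of complex V, and 12 assembly factors (4 for complex II and 8 for complex IV).

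Affymetrix arrays measured RNA from 3T3-L1 adipocytes, a mouse line of fibroblast-like preadipocytes that turn into fat cells under a hormone mix in the dish. The control cells (n = 3 arrays) are labelled as having no treatment. Chronic insulin cells (CI, n = 2) received 10 nM insulin in 4 additions, TNF cells (n = 3) received tumour necrosis factor alpha at 2 ng/ml for 4 days, and DEX cells (n = 3) received 20 nM dexamethasone, a synthetic glucocorticoid, for 8 days. The protocol names 0.01% ethanol as the carrier control of dexamethasone, and the labels do not say whether the control cells received it. All cells were differentiated the same way and were harvested at the same age after differentiation, and the labels frame each treatment as a way to make adipocytes insulin resistant. The samples come from a single cell line in culture, although the source label reads adipose tissue. The labels do not say that replicates were separate cultures, so p-values reflect no more than the spread among these arrays, which may be technical.

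The respiratory chain passes electrons from nutrients to oxygen in the inner mitochondrial membrane. Complex II (succinate dehydrogenase) oxidises succinate and reduces ubiquinone. Complex III takes electrons from ubiquinol to cytochrome c, complex IV (cytochrome c oxidase) passes them to oxygen, and complex V makes ATP from the resulting proton gradient. Assembly factors insert haem, copper, flavin and iron-sulphur clusters or hold subunits in place, and are not part of the finished enzyme. White adipocytes have few mitochondria beside brown ones, yet use them for fatty acid synthesis and for the breakdown of branched-chain amino acids. Promoters of these genes are known for binding nuclear respiratory factor 1 (NRF1), GABP of the ETS family and, at cytochrome c, CREB.

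Promoter sequences of 6 members are shown as examples, picked from their results. Sdhb and Uqcrfs1 had the lowest adjusted p of complex II and complex III under TNF, and Cycs is the only member gene of cytochrome c. Atp5g1, Atp5g2 and Atp5g3 encode the same mature ATP synthase subunit c, yet their calls differed between treatments. Each is the 250 bases before a transcription start in RefSeq on build GRCm38.p6, 5′ to 3′ on the strand of the gene. Capitals mark the NRF1 core GCATGCGC on either strand, the CRE palindrome TGACGTCA, and the ETS core CCGGAAG on either strand, which is absent from these 6 windows. The windows lie at chr4:140961021-140961270, plus strand (Sdhb), chr13:30545317-30545566, minus strand (Uqcrfs1), chr6:50566570-50566819, minus strand (Cycs), chr11:96075632-96075881, minus strand (Atp5g1), chr15:102671048-102671297, minus strand (Atp5g2) and chr2:73911327-73911576, minus strand (Atp5g3).
Sdhb: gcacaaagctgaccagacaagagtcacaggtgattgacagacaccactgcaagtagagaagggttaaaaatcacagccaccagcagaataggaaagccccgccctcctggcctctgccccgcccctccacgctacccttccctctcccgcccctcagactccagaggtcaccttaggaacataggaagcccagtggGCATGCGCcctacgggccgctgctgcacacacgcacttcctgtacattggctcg
Uqcrfs1: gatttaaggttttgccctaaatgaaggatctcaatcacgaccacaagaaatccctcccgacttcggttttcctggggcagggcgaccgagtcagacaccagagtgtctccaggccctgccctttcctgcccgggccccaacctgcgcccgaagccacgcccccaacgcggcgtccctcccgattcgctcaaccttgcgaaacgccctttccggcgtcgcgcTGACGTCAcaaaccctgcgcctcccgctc
Cycs: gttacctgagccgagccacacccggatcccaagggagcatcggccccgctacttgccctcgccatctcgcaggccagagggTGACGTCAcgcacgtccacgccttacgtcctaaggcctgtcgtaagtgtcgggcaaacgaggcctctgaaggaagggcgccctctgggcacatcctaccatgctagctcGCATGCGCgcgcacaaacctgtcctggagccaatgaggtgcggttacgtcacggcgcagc
Atp5g1: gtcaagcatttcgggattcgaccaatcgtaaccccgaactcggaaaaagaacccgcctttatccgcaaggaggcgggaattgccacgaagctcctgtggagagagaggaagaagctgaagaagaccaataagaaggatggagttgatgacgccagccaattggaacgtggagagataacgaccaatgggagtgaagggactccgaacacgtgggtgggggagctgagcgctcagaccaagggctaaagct
Atp5g2: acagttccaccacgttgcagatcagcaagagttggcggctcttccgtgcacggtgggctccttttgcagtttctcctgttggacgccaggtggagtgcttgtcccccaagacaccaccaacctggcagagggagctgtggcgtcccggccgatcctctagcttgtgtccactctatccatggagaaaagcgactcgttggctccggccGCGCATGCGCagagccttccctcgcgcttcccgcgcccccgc
Atp5g3: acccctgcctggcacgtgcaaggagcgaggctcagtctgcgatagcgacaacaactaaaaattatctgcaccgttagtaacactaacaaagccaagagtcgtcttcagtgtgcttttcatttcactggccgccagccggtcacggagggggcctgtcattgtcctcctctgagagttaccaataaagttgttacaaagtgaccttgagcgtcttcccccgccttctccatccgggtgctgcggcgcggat
In Sdhb the NRF1 core began 54 bases before the start, and in Cycs 60 bases before it. Cycs also held a CRE palindrome 169 bases before the start, and Uqcrfs1 held one 29 bases before it. In Atp5g2 the NRF1 core lay on both strands in overlapping letters, 40 and 42 bases before the start, while Atp5g1 and Atp5g3 held none of the motifs in these windows. The windows of Atp5g1 and Atp5g3 precede starts inside the RefSeq genes, whose outer ends are at chr11:96075694 and chr2:73912464. The bases before that end are covered in part for Atp5g1 and not at all for Atp5g3.

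Promoters were found in the RefSeq table for 46 of the 60 members, in 50 windows. The NRF1 core was in 12.0% of these windows, against 3.62% of the 15800 windows of tested genes and 2.26% of all 32851 windows. Its 6 members were Atp5g2, Atp5k, Atp5l, Cox6a1, Cycs and Sdhb. The ETS core was in 15 of the members' 50 windows (30.0%), against 1738 of the 15800 of tested genes and 6.91% of all, and the CRE palindrome in 4.00%, against 2.25% and 1.55%. These shares are descriptions of letters and say nothing of whether a factor bound.

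Each array held 45101 probe sets, with medians between 124.5 and 129.5 and values between 6.01 and 25933, and arrays of a group had Spearman correlations between 0.9961 and 0.9977 over all probe sets. The brightest member on any array reached 17339. Differences are log2 fold changes of intensity + 16, with standard errors (SE) from limma. A gene passed at a limma p below 0.05 after Benjamini-Hochberg adjustment over the 15622 genes. Values given for single arrays are intensities in replicate order, and since probe sets differ in brightness, levels are compared within a gene only. Of adipocyte markers Adipoq lay at 20816 to 23388 and Fabp4 at 21646 to 23317 on all 11 arrays. With TNF 4 of the other adipocyte markers fell (11.3% of all tested genes did). Of the 10 macrophage and leukocyte markers, the pan-leukocyte gene Ptprc and the myeloid integrin gene Itgam lay at 22.3 to 28.2 and 45.6 to 57.7, with means under the dim filter of 51.8. The other 8 were above it, among them Lyz2 at 1335 to 3030, Cd14 at 245.1 to 1322 and Mpeg1 at 245.1 to 1342. Adgre1 lay at 90.1 to 117.4 and Cd68 at 68.0 to 113.8.

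Most members were lower in TNF than in control. Against control 42 of 58 fell and 1 rose, while 11.3% of all tested genes fell and 13.9% rose. The median over members was -0.22 and the median over all genes -0.01. All 3 TNF arrays lay below all control arrays for 48 members and above them for 3, against 21.3% and 21.8% of all tested genes. The count of falls moved to 27 without control replicate 3 and to 25 without TNF replicate 1, with 1 rise in each case. Over all tested genes the falls moved from 1758 to 1200 and 1246 in these settings. The median over members was -0.20 in both. These are bulk samples, in which fewer cells of a type and less RNA per cell cannot be told apart.

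Fewer members passed with CI and with DEX, in both directions. With CI 9 members rose and 3 fell, against 8.38% and 8.88% of all tested genes, and the median over members was 0.06 (all genes 0.01). Without CI replicate 1 the CI counts were 2 and 3. With DEX 11 rose and 6 fell, against 14.0% and 13.6% of all tested genes, and the median was 0.06 (all genes 0.02). The 17 DEX calls became 10 without control replicate 1, 9 without control replicate 2, 11 without DEX replicate 2 and 9 without DEX replicate 3. Over all tested genes the 4316 DEX calls became 3597, 3462, 3937 and 3760 in the same order. Arrays did not overlap, higher and lower, for 27 and 7 members in CI (24.0% and 22.0% of all genes) and for 14 and 6 in DEX (21.8% and 18.7%). The DEX counts lay near what those shares give for 58 genes, while in CI more members were higher than the shares give. The 3 treatments share the control arrays.

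**Figure D1:**
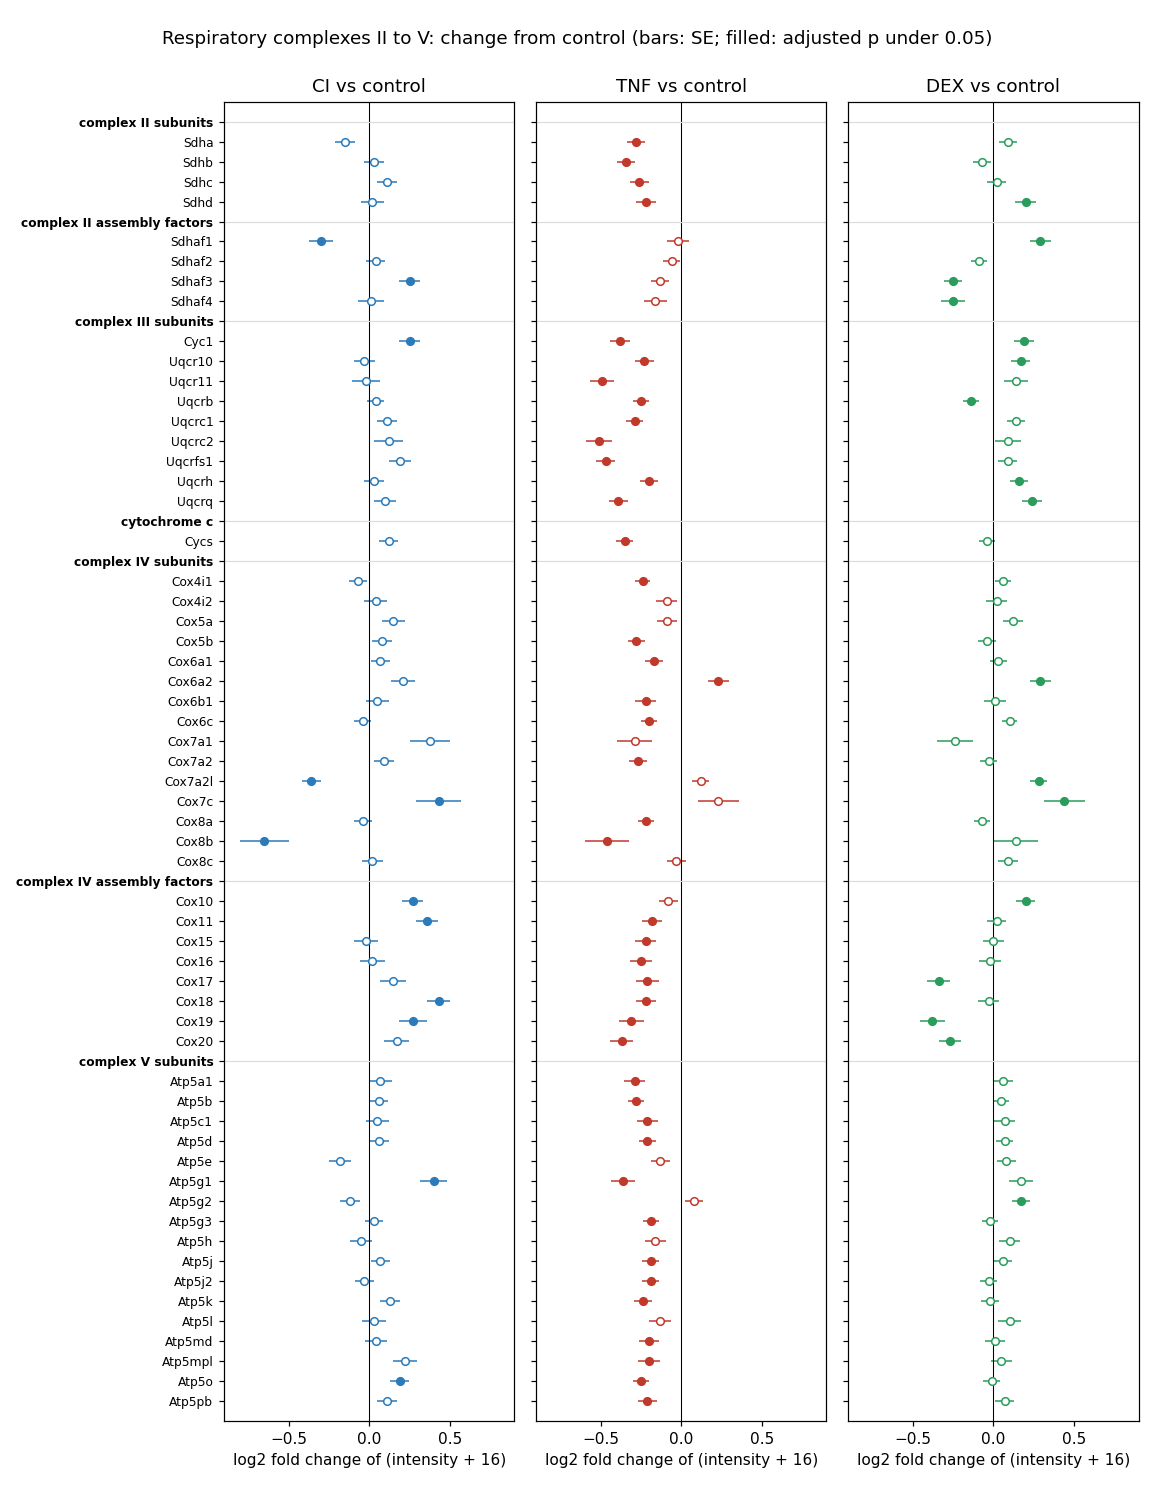
Log2 fold change of intensity + 16 against control for the 58 tested members, by complex and role, in CI, TNF and DEX. Points are estimates, bars are SE, and filled points have a limma adjusted p under 0.05. In the TNF panel 54 points lie below 0, and the 9 complex III subunits are all filled.

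**Figure D2:**
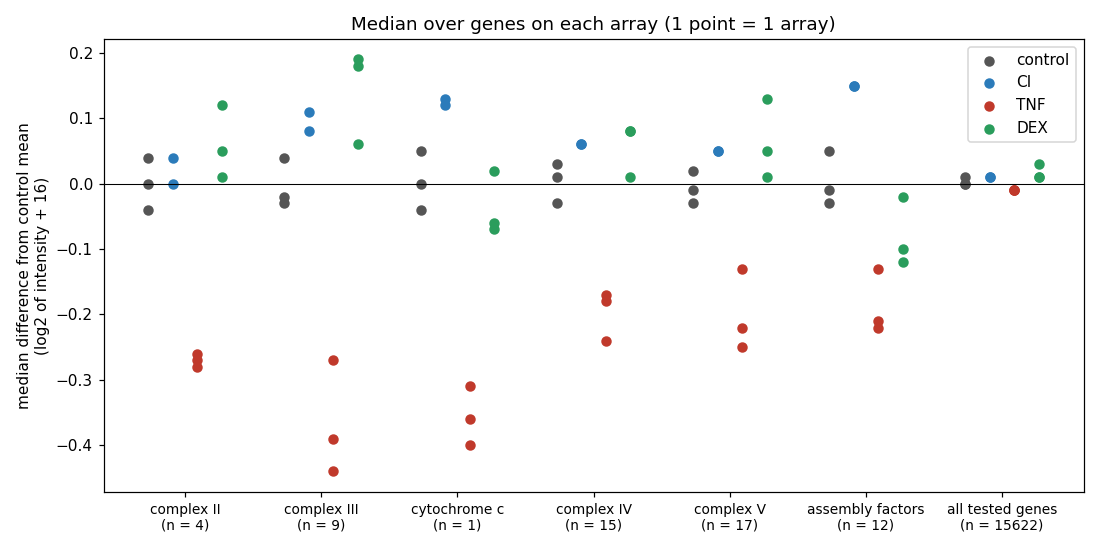
Median over genes of the log2 difference from the control mean on each array, for the subunits of each complex, the 12 assembly factors and all 15622 tested genes. Each point is 1 array. The TNF points of complex III lie at -0.44, -0.39 and -0.27, and those of all tested genes at -0.01.

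All 4 subunits of complex II fell with TNF, by a median of 0.27 on the log2 scale. Sdhb carries the iron-sulphur clusters that pass electrons on from the flavin. Its intensity was 5518, 5483 and 5518 in control and 4274, 4265 and 4504 in TNF. The TNF arrays lay below all others, with 5687 and 5545 in CI and 4886, 5544 and 5328 in DEX (log2 fold change -0.34, SE 0.0558, limma adjusted p = 0.000378). Sdha holds the flavin and binds succinate. It lay at 6729, 6091 and 6438 in control and at 5317, 5257 and 5276 in TNF, without overlap (log2 fold change -0.28, SE 0.0545, limma adjusted p = 0.00158). In CI it lay at 5618 and 5925, also below the controls (log2 fold change -0.15, SE 0.0609, limma adjusted p = 0.105), and it did not pass there. The next brightest probe set of Sdha differed by -0.42 in TNF, -0.29 in CI and 0.23 in DEX.

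Sdhc and Sdhd anchor the enzyme in the membrane and hold its haem. Sdhc lay at 5132, 4975 and 5429 in control and at 4282, 4389 and 4250 in TNF (log2 fold change -0.26, SE 0.0578, limma adjusted p = 0.00366), and at 5364 and 5788 in CI and 4948, 5339 and 5479 in DEX. Sdhd lay at 4973, 5095 and 5424 in control and at 4284, 4479 and 4513 in TNF (log2 fold change -0.22, SE 0.0637, limma adjusted p = 0.0196). It also rose with DEX, to 5662, 5664 and 6443, the only complex II subunit that passed there (log2 fold change 0.20, SE 0.0637, limma adjusted p = 0.0328). The Sdhd call in TNF was lost without control replicate 3 or TNF replicate 1 (adjusted p 0.076 to 0.0866). Its call in DEX was lost without control replicate 1, control replicate 2 or DEX replicate 3, or with only the 2 groups fitted (0.0546 to 0.149).

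None of the 4 assembly factors of complex II passed with TNF, and their differences ran from -0.16 for Sdhaf4 to -0.02 for Sdhaf1. With quantile normalization Sdhaf3 (-0.19, limma adjusted p = 0.0165) and Sdhaf4 (-0.21, limma adjusted p = 0.0443) passed, and Sdhaf4 also passed with only the 2 groups fitted (limma adjusted p = 0.0457). Sdhaf1 and Sdhaf3, which together help to mature the iron-sulphur subunit, moved in opposite directions with CI and with DEX. Sdhaf1 lay at 695.1, 678.3 and 761.5 in control, at 597.8 and 550.7 in CI and at 839.5, 942.7 and 847.8 in DEX. It fell with CI (log2 fold change -0.30, SE 0.0736, limma adjusted p = 0.0108) and rose with DEX (log2 fold change 0.29, SE 0.0658, limma adjusted p = 0.00336), with no array of either treatment inside the range of the controls. Sdhaf3 lay at 797.9, 780.1 and 786.0 in control, at 977.8 and 906.6 in CI and at 625.6, 701.7 and 660.9 in DEX. It rose with CI (log2 fold change 0.25, SE 0.0627, limma adjusted p = 0.0119) and fell with DEX (log2 fold change -0.25, SE 0.0561, limma adjusted p = 0.00390). Sdhaf4, which protects the flavin-bearing subunit before it is joined to its partner, fell with DEX from 1516, 1578 and 1596 to 1216, 1473 and 1247 (log2 fold change -0.25, SE 0.0730, limma adjusted p = 0.0167). Sdhaf2, which helps to attach the flavin, passed in no treatment. The CI calls were lost without CI replicate 2 for Sdhaf1 (adjusted p 0.113), and without CI replicate 1 or when all probe sets were averaged for Sdhaf3 (0.148 to 0.366). The Sdhaf4 call was lost without control replicate 2 or 3 or DEX replicate 1 or 3 (0.053 to 0.0777).

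Complex III showed the lowest median of any complex with TNF: all 9 subunits fell, with a median of -0.38. Without TNF replicate 1 or control replicate 2, 7 of the 9 passed, and the calls lost were those of Uqcr10 (adjusted p 0.0556 to 0.0561) and Uqcrh (0.0588 to 0.0633). Uqcrfs1 is the Rieske iron-sulphur protein, which takes an electron from ubiquinol. It lay at 7160, 7202 and 7755 in control and at 5234, 5131 and 5574 in TNF (log2 fold change -0.47, SE 0.0593, limma adjusted p = 3.68e-05). Its arrays in CI, 8564 and 8214, lay above all controls without passing (log2 fold change 0.19, SE 0.0663, limma adjusted p = 0.0678), and those in DEX were 7408, 8285 and 7886.

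Cyc1 encodes cytochrome c1, the haem protein that hands electrons to cytochrome c. It was the only complex III subunit that passed in all 3 treatments. Cyc1 lay at 7551, 7621 and 8045 in control, 9616 and 8856 in CI, 5703, 5746 and 6437 in TNF and 8610, 9024 and 8812 in DEX. The TNF arrays were the lowest and the CI and DEX arrays lay above every control. It fell with TNF (log2 fold change -0.38, SE 0.0602, limma adjusted p = 0.000300) and rose with CI (log2 fold change 0.25, SE 0.0674, limma adjusted p = 0.0170) and DEX (log2 fold change 0.19, SE 0.0602, limma adjusted p = 0.0304). The call in CI was lost without control replicate 1 or 2 or CI replicate 1 (adjusted p 0.0562 to 0.192), and that in DEX without control replicate 1 or 2 or DEX replicate 2 or 3 (0.0662 to 0.095).

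The core proteins Uqcrc1 and Uqcrc2 face the matrix and support the structure. Uqcrc2 had the largest TNF fall of the members, from 3081, 2955 and 3788 to 2137, 2346 and 2375 (log2 fold change -0.51, SE 0.0817, limma adjusted p = 0.000316), and control replicate 3 lay well above the other controls. Uqcrc1 fell from 6072, 6105 and 6358 to 5151, 4822 and 5155 (log2 fold change -0.29, SE 0.0554, limma adjusted p = 0.00125). In DEX Uqcrc1 lay at 6432, 6904 and 7132, above all controls, and did not pass (log2 fold change 0.14, SE 0.0554, limma adjusted p = 0.0718). It passed there with a pseudocount of 64 (limma adjusted p = 0.0447) or when the probe sets of every gene were averaged (limma adjusted p = 0.0450). Uqcrc1 has only 1 probe set, so the averaging left its own values unchanged.

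Among the small subunits without cofactors, Uqcr11 fell from 3501, 3500 and 3655 to 2286, 2541 and 2783 with TNF (log2 fold change -0.49, SE 0.0755, limma adjusted p = 0.000231), and Uqcrq from 5189, 5154 and 5327 to 3812, 3993 and 4190 (log2 fold change -0.39, SE 0.0603, limma adjusted p = 0.000254). With DEX Uqcrq moved the other way, to 5743, 6642 and 6132 (log2 fold change 0.24, SE 0.0603, limma adjusted p = 0.00796), though the call was lost with the mean of its probe sets (adjusted p 0.189). Uqcr10 rose with DEX (log2 fold change 0.17, SE 0.0587, limma adjusted p = 0.0434), from 4199, 4514 and 4379 to 4603, 5141 and 4999. The hinge protein gene Uqcrh rose as well (log2 fold change 0.16, SE 0.0556, limma adjusted p = 0.0422), from 4997, 5308 and 5221 to 5438, 5856 and 6095. Uqcrb, which helps to form the ubiquinone pocket, went against these on its brightest probe set: it fell with DEX from 14528, 15109 and 14963 to 13520, 13184 and 13772 (log2 fold change -0.14, SE 0.0486, limma adjusted p = 0.0441). The next brightest probe set of Uqcrb differed by -0.01 in DEX. The 4 rises in complex III became 1 without control replicate 1 or 2 or DEX replicate 2 or 3, 2 without TNF replicate 2, and 2 with a pseudocount of 1 or only the 2 groups. The Uqcrb call was lost under 15 of 20 alternatives, among them leaving out any array (adjusted p 0.0524 to 0.206), the Uqcrh call under 12 (0.0504 to 0.157) and the Uqcr10 call under 8 (0.0518 to 0.145).

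Cycs encodes cytochrome c, the mobile carrier between complexes III and IV. On its brightest probe set it lay at 12366, 13185 and 12723 in control, 13978 and 13822 in CI, 10302, 9681 and 9958 in TNF and 12139, 12259 and 12942 in DEX. All TNF arrays lay below every other array, and Cycs fell (log2 fold change -0.35, SE 0.0522, limma adjusted p = 0.000149). The CI arrays lay above the controls and did not pass (log2 fold change 0.12, SE 0.0584, limma adjusted p = 0.174). The next brightest probe set differed by 0.41 in CI and -0.47 in TNF, and another by 0.54 and -0.66. With the mean of all its probe sets Cycs rose with CI by 0.37 (limma adjusted p = 0.000523), and with quantile normalization by 0.17 (limma adjusted p = 0.0471). The size of the Cycs changes thus depended on the probe set, and their direction in CI and TNF did not.

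**Figure D3:**
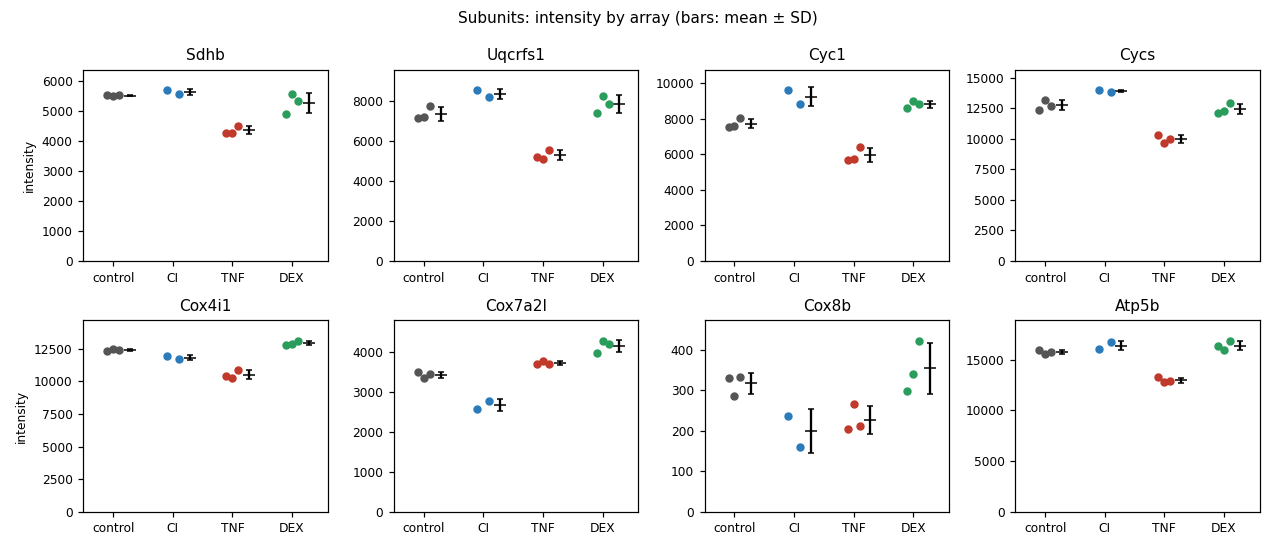
Intensity on each array for Sdhb, Uqcrfs1, Cyc1, Cycs, Cox4i1, Cox7a2l, Cox8b and Atp5b, by group. Points are arrays, bars are mean ± SD (n = 3, in CI n = 2), and axes start at 0. TNF arrays are the lowest for Sdhb, Uqcrfs1, Cyc1, Cycs, Cox4i1 and Atp5b, whereas Cox7a2l is lowest in CI.

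In complex IV 8 of 15 subunits fell with TNF and 1 rose, with a median of -0.20. Without TNF replicate 1 or control replicate 3 the falls were 5. Cox4i1, the common form of the regulatory subunit that binds ATP, lay at 12294, 12432 and 12414 in control and 10381, 10224 and 10870 in TNF (log2 fold change -0.24, SE 0.0486, limma adjusted p = 0.00217). Cox5b, which binds zinc on the matrix side, fell from 11481, 11811 and 11892 to 9448, 9445 and 10003 (log2 fold change -0.28, SE 0.0534, limma adjusted p = 0.00118). Cox7a2 is the common form of a small subunit at the dimer contact, and fell from 11258, 11997 and 12007 to 9538, 9510 and 10198 (log2 fold change -0.27, SE 0.0548, limma adjusted p = 0.00216). Cox6c (-0.20) and the genes below made up the remaining falls. Cox5a, which sits beside Cox5b, did not pass on its brightest probe set: it lay at 8597, 8803 and 9566 in control and 8609, 8047 and 8719 in TNF, with overlap (log2 fold change -0.09, SE 0.0623, limma adjusted p = 0.335). Its next brightest probe set differed by -0.22, and with all its probe sets averaged Cox5a fell by 0.15 (limma adjusted p = 0.0405).

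Several complex IV subunits have a common form and a form typical of muscle, heart, brown fat or other tissues, and the members of a pair did not always move together. The hypoxia-responsive form Cox4i2 lay between 143.6 and 183.4 over all groups and passed in no treatment (-0.09 in TNF), unlike Cox4i1. Cox6a1, the common form, fell with TNF from 15728, 15675 and 17006 to 13943, 14200 and 14773 (log2 fold change -0.17, SE 0.0537, limma adjusted p = 0.0285). Cox6a2, the heart and muscle form, was dim and rose, from 283.8, 320.1 and 329.0 to 352.1, 351.7 and 397.6 in TNF (log2 fold change 0.23, SE 0.0652, limma adjusted p = 0.0185) and to 376.5, 393.3 and 376.6 in DEX (log2 fold change 0.29, SE 0.0652, limma adjusted p = 0.00384). Its CI arrays, 352.5 and 370.3, also lay above the controls and did not pass (log2 fold change 0.21, SE 0.0729, limma adjusted p = 0.0625). The difference between the forms was itself not tested. Cox6a1 lost its call without control replicate 3 or TNF replicate 1 or 2 or with median centring (adjusted p 0.0509 to 0.135), and Cox6a2 its TNF call without control replicate 1 or TNF replicate 3, with quantile normalization or when all probe sets were averaged (0.0619 to 0.167). Cox6b1, which joins the monomers into a dimer, fell with TNF from 9039, 9472 and 9628 to 7695, 7961 and 8433 (log2 fold change -0.22, SE 0.0653, limma adjusted p = 0.0208). Its testis form Cox6b2 lay between 42.1 and 55.4 on all arrays. The Cox6b1 call was lost without control replicate 2 or 3 or TNF replicate 1 or 2 (0.0606 to 0.0851).

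Cox8a, the common form of a small subunit, fell with TNF from 12081, 11556 and 11862 to 10008, 10127 and 10243 (log2 fold change -0.22, SE 0.0503, limma adjusted p = 0.00440). Cox8b, the form of heart, muscle and brown fat, was low and variable. It lay at 330.5, 286.4 and 334.1 in control, 237.6 and 160.4 in CI, 204.7, 267.2 and 210.9 in TNF and 299.2, 341.6 and 422.0 in DEX. The CI and TNF arrays lay below all controls, and Cox8b fell with CI (log2 fold change -0.65, SE 0.152, limma adjusted p = 0.00805) and with TNF (log2 fold change -0.46, SE 0.136, limma adjusted p = 0.0231). The CI call was lost without CI replicate 2 (adjusted p 0.148), and the TNF call without control replicate 1 or 3 or TNF replicate 1 or 3 (0.0662 to 0.0923). Cox8c, the testis form, passed in no treatment on its brightest probe set (0.09 in DEX), and with its probe sets averaged it rose with DEX by 0.18 (limma adjusted p = 0.0177). Cox7a1, another form typical of muscle and brown fat, lay between 48.5 and 114.6 and passed in none against control (0.38 in CI, -0.29 in TNF), with the CI arrays at 114.6 and 77.9 far apart. It passed with CI under the replicate block and with TNF when only the 2 groups were fitted. Of the fixed list of 7 brown adipocyte markers, which holds Cox8b and Cox7a1, 2 fell with TNF and none rose (11.3% and 13.9% of all tested genes). The falls were those of Cox8b itself and of Ucp1 (limma adjusted p = 0.0499). Ucp1 was dim, at 81.2, 86.6 and 82.5 in control and 76.9, 68.7 and 73.1 in TNF. With DEX 2 of the list rose and 1 fell (14.0% and 13.6% of all tested genes). The summed intensity of the list was 1135 to 1220 in control and 959.0 to 1033 in TNF.

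Cox7a2l is a relative of Cox7a2 that joins complexes III and IV in supercomplexes. It lay at 3494, 3346 and 3447 in control, 2563 and 2779 in CI, 3694, 3769 and 3703 in TNF and 3984, 4275 and 4205 in DEX. No 2 groups overlapped: CI was lowest, then control, TNF and DEX. It fell with CI (log2 fold change -0.36, SE 0.0591, limma adjusted p = 0.000747), rose with DEX (log2 fold change 0.28, SE 0.0528, limma adjusted p = 0.00106), and did not pass in TNF (log2 fold change 0.12, SE 0.0528, limma adjusted p = 0.120). Its other probe sets differed by -0.29 and -0.29 in CI, 0.22 and 0.22 in TNF and 0.29 and 0.34 in DEX, and with the mean of its probe sets it rose with TNF by 0.18 (limma adjusted p = 0.0188). Cox7c, a small subunit, rose with CI (log2 fold change 0.43, SE 0.141, limma adjusted p = 0.0472) and DEX (log2 fold change 0.44, SE 0.126, limma adjusted p = 0.0178) on a dim probe set, with control arrays at 74.6, 72.3 and 58.9, CI at 97.1 and 98.5 and DEX at 89.0, 82.3 and 127.3. Cox7c has 2 probe sets used here, with means of 86.4 and 29.1, and whether they read its transcript well is not known. Its CI call was lost under 12 of 19 alternatives that kept the gene (adjusted p 0.0514 to 0.179), among them leaving out any control or CI array, and its DEX call without control replicate 3 or DEX replicate 3 (0.0764 to 0.0828).

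Of the 8 assembly factors of complex IV, 7 fell with TNF (11.3% of all tested genes) and 4 rose with CI (8.38%). With DEX 1 rose and 3 fell (14.0% and 13.6%), and 0 rose and 1 fell with the mean of all probe sets. Cox18 inserts the mitochondrially encoded copper subunit into the membrane. It lay at 2343, 2415 and 2578 in control, 3437 and 3181 in CI, 2050, 2075 and 2168 in TNF and 2287, 2594 and 2285 in DEX. The CI arrays were well above all others, and Cox18 rose with CI (log2 fold change 0.43, SE 0.0708, limma adjusted p = 0.000697) and fell with TNF (log2 fold change -0.22, SE 0.0633, limma adjusted p = 0.0200). Cox11, which delivers copper to the catalytic subunit, lay at 599.0, 590.7 and 573.6 in control, 828.7 and 698.3 in CI and 513.8, 512.2 and 526.7 in TNF. It rose with CI (log2 fold change 0.36, SE 0.0683, limma adjusted p = 0.00198) and fell with TNF (log2 fold change -0.18, SE 0.0611, limma adjusted p = 0.0452). Cox10, which makes a haem precursor for the catalytic subunit, rose with CI from 652.1, 645.0 and 697.8 to 812.2 and 796.1 (log2 fold change 0.27, SE 0.0665, limma adjusted p = 0.0115) and with DEX to 748.2, 821.7 and 728.7 (log2 fold change 0.20, SE 0.0595, limma adjusted p = 0.0210), and was the only one of the 8 that did not pass with TNF (-0.08). Without CI replicate 1, 2 of the 4 rises with CI remained past the threshold. The Cox10 call in DEX was lost without control replicate 1 or 2 or DEX replicate 2, or when all probe sets were averaged (adjusted p 0.0671 to 0.112).

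Cox17, Cox19 and Cox20 fell with DEX as well as TNF, while Cox11 (0.02) and Cox18 (-0.03) did not pass with DEX. Cox19, a copper-binding protein of the intermembrane space, passed in all 3 treatments, with 1896, 2008 and 2112 in control, 2643 and 2220 in CI, 1533, 1557 and 1768 in TNF and 1450, 1651 and 1507 in DEX. All CI arrays lay above the controls and all TNF and DEX arrays below them (log2 fold change -0.38, SE 0.0779, limma adjusted p = 0.00170 in DEX). The TNF value was -0.31 (SE 0.0779, limma adjusted p = 0.00950) and the CI value 0.27 (SE 0.0870, limma adjusted p = 0.0435). The CI call was lost under 9 of 20 alternatives (adjusted p 0.0506 to 0.447), among them leaving out control replicate 1 or 2, CI replicate 1, TNF replicate 2 or DEX replicate 3. Cox17, the copper donor upstream of Cox11, lay at 3877, 3925 and 4092 in control, 3371, 3276 and 3635 in TNF and 2836, 3527 and 3054 in DEX (log2 fold change -0.34, SE 0.0716, limma adjusted p = 0.00215 in DEX). Cox20, a chaperone of the copper subunit, lay at 2522, 2333 and 2568 in control, 1899, 1940 and 1897 in TNF and 1928, 2322 and 1937 in DEX. It had the lowest adjusted p of complex IV with TNF (log2 fold change -0.37, SE 0.0691, limma adjusted p = 0.00115) and fell with DEX (log2 fold change -0.27, SE 0.0691, limma adjusted p = 0.00937). With the mean of all probe sets the DEX calls of Cox17 (adjusted p 0.0692) and Cox20 (0.252) were lost, and each of these genes has a second probe set near or below the dim filter.

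The TNF differences of the 8 complex IV assembly factors had a median of -0.22, the same as over all members. Several of their calls were lost when 1 array was left out. Of the 7, 2 passed without TNF replicate 1, 2 without TNF replicate 2, 3 without control replicate 3 and 4 without control replicate 1. Cox15 (-0.22) and Cox16 (-0.25) were among those lost, as were Cox18 (adjusted p 0.0607 to 0.0909), Cox11 (0.0539 to 0.114) and Cox17 (0.0501 to 0.25). Cox19 and Cox20 passed in TNF under all alternatives run.

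Complex V fell with TNF in 13 of its 17 subunit genes, with a median of -0.20, and none rose. Without control replicate 3 the falls were 6 and without TNF replicate 1 they were 7. The falls over all tested genes were 1200 and 1246 in these settings, against 1758 with all arrays. Of the catalytic F1 part 4 of 5 fell, and of the membrane part and stalk 9 of 12. Atp5b, the catalytic beta subunit, lay at 15967, 15531 and 15810 in control and 13289, 12836 and 12891 in TNF, with 16105 and 16710 in CI and 16356, 15944 and 16859 in DEX. Only the TNF arrays stood below the controls (log2 fold change -0.28, SE 0.0493, limma adjusted p = 0.000736). Atp5a1, the alpha subunit, fell from 11556, 10750 and 11828 to 9224, 9538 and 9104 (log2 fold change -0.29, SE 0.0626, limma adjusted p = 0.00325). Atp5o, the stalk subunit that holds F1 in place, fell from 7544, 7380 and 7646 to 6325, 6110 and 6509 with TNF (log2 fold change -0.25, SE 0.0521, limma adjusted p = 0.00242) and rose with CI to 8540 and 8649 (log2 fold change 0.19, SE 0.0583, limma adjusted p = 0.0342). That CI call was lost without any single control or CI array and with median centring (adjusted p 0.054 to 0.147). Atp5c1 (-0.21) and Atp5d (-0.21) of the central stalk fell too. The Atp5c1 call was lost without any single control array, without TNF replicate 1 or 2, and when all probe sets were averaged (adjusted p 0.0507 to 0.561). The epsilon subunit gene Atp5e (-0.13) did not pass.

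The 3 genes of subunit c, which forms the turning ring of the membrane part, encode the same mature protein with different import sequences. Their calls differed between treatments, and the difference between the 3 genes was itself not tested. Atp5g1 lay at 2228, 2250 and 2468 in control, 3171 and 2940 in CI, 1767, 1697 and 1941 in TNF and 2379, 2845 and 2601 in DEX. All CI arrays were above and all TNF arrays below the controls. It rose with CI (log2 fold change 0.40, SE 0.0820, limma adjusted p = 0.00372) and fell with TNF (log2 fold change -0.36, SE 0.0733, limma adjusted p = 0.00219), and its DEX value was 0.17 (SE 0.0733, limma adjusted p = 0.105). The CI call was lost without CI replicate 1 (adjusted p 0.0574). Atp5g2 lay at 4923, 4746 and 4917 in control, 4797 and 4168 in CI, 5197, 5139 and 5101 in TNF and 5353, 5477 and 5579 in DEX. Its TNF arrays lay above all controls and did not pass (log2 fold change 0.08, SE 0.0568, limma adjusted p = 0.317), and it rose with DEX (log2 fold change 0.17, SE 0.0568, limma adjusted p = 0.0375). Atp5g3 lay at 16748, 16481 and 17044 in control, 16834 and 17339 in CI, 14478, 14599 and 15099 in TNF and 16360, 16298 and 17025 in DEX, and fell with TNF (log2 fold change -0.19, SE 0.0491, limma adjusted p = 0.0120). The Atp5g3 call was lost without control replicate 3 (adjusted p 0.0513). The Atp5g2 call in DEX was lost under 8 of 20 alternatives, among them leaving out any control or DEX array (0.0536 to 0.121). As shown above, the NRF1 core is in the promoter window of Atp5g2 and not in the windows shown for Atp5g1 and Atp5g3. Those of Atp5g1 and Atp5g3 precede starts inside the genes, so the bases before the outer ends were not fully covered.

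**Figure D4:**
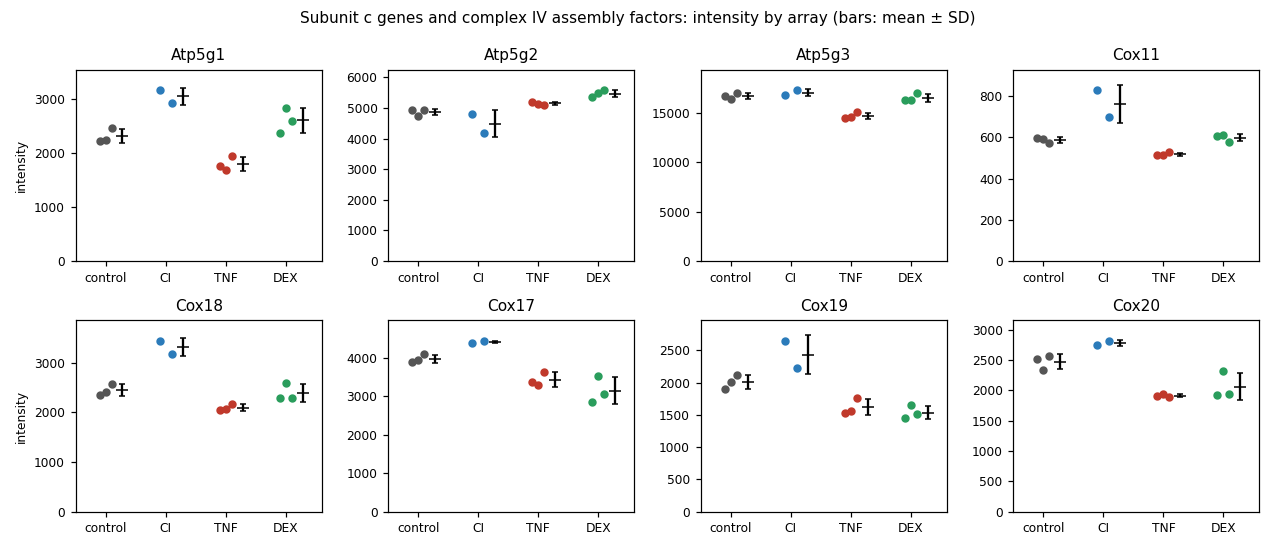
Intensity on each array for the subunit c genes Atp5g1, Atp5g2 and Atp5g3 and the complex IV assembly factors Cox11, Cox18, Cox17, Cox19 and Cox20, by group. Points are arrays, bars are mean ± SD (n = 3, in CI n = 2), and axes start at 0. Atp5g1 and Cox18 are highest in CI, Atp5g2 is highest in DEX, and Cox17, Cox19 and Cox20 lie below control in both TNF and DEX.

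Between treatments the members were lower in TNF than in either of the others. Against CI 44 of 58 were lower in TNF and 3 higher, with a median of -0.27, while 17.3% of all tested genes were lower and 18.9% higher. The lowest adjusted p were those of Uqcrfs1 (-0.66 (SE 0.0663, limma adjusted p = 2.2e-06)), Cyc1 (-0.63 (SE 0.0674, limma adjusted p = 3.83e-06)) and Atp5g1 (-0.76 (SE 0.0820, limma adjusted p = 4.37e-06)). The higher members were Cox7a2l (0.48 (SE 0.0591, limma adjusted p = 1.62e-05)), Sdhaf1 (0.28 (SE 0.0736, limma adjusted p = 0.00739)) and Atp5g2 (0.20 (SE 0.0635, limma adjusted p = 0.0219)). The calls of Sdhaf1 (adjusted p 0.0941 without CI replicate 2) and Atp5g2 (0.0579 to 0.322 without CI replicate 2 or TNF replicate 1) were the ones lost among these.

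Against DEX 45 of 58 members were lower in TNF and none higher, with a median of -0.24, while 18.0% of all tested genes were lower and 18.2% higher. Uqcrq (-0.62 (SE 0.0603, limma adjusted p = 1.05e-06)), Uqcrfs1 (-0.56 (SE 0.0593, limma adjusted p = 2.55e-06)) and Cyc1 (-0.56 (SE 0.0602, limma adjusted p = 2.89e-06)) came first, all of complex III. The count of higher members was 3 without DEX replicate 2 and 0 without any other array.

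DEX and CI differed for fewer members: 7 were higher in DEX and 12 lower, with a median of -0.03, beside 17.1% and 16.9% of all tested genes. The 19 calls became 12 without CI replicate 2. Higher in DEX were Cox7a2l (0.63 (SE 0.0591, limma adjusted p = 6.59e-07)), Sdhaf1 (0.60 (SE 0.0736, limma adjusted p = 1.29e-05)) and Cox8b (0.79 (SE 0.152, limma adjusted p = 0.000708)), with Atp5g2, Atp5e, Sdha and Uqcr10. Lower were Sdhaf3 (-0.50 (SE 0.0627, limma adjusted p = 1.56e-05)), Cox19 (-0.65 (SE 0.0870, limma adjusted p = 2.65e-05)) and Cox18 (-0.47 (SE 0.0708, limma adjusted p = 8.96e-05)). Of the 12 assembly factors 7 were lower in DEX than in CI and 1 was higher, and of the 46 subunits 5 were lower and 6 higher.

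The treatments divided the members into 14 patterns of calls against control. The same patterns were not counted over all tested genes, so these counts are descriptions of the members only. The most common, with 28 members, was a fall in TNF and no call in CI or DEX, and it took in 3 of the 4 complex II subunits and 11 of the 17 of complex V. In 8 members no treatment passed: Atp5e, Atp5h, Atp5l, Cox4i2, Cox5a, Cox7a1, Cox8c and Sdhaf2. Of these, Atp5e, Atp5h, Cox5a, Cox7a1 and Cox8c passed in some treatment under at least 1 alternative. A rise in CI with a fall in TNF and no call in DEX was seen for Atp5g1, Atp5o, Cox11 and Cox18. A fall in TNF with a rise in DEX and no call in CI was seen for Sdhd, Uqcr10, Uqcrh and Uqcrq. Cyc1 rose in CI and DEX and fell in TNF, and Cox19 rose in CI and fell in TNF and DEX.

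Many members have further probe sets, which gave a second reading from the same arrays. For 23 members the next brightest probe set had a mean of at least 1000. The direction of the 2 probe sets matched in 19 of these in CI, 23 in TNF and 17 in DEX. The median over brightest probe sets in TNF was -0.22, and over next brightest ones -0.26. Of the 26 members that passed in TNF and have more than 1 probe set above the dim filter, 24 had all of them in the direction of the call. The exceptions were Atp5c1 and Uqcrq.

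**Figure D5:**
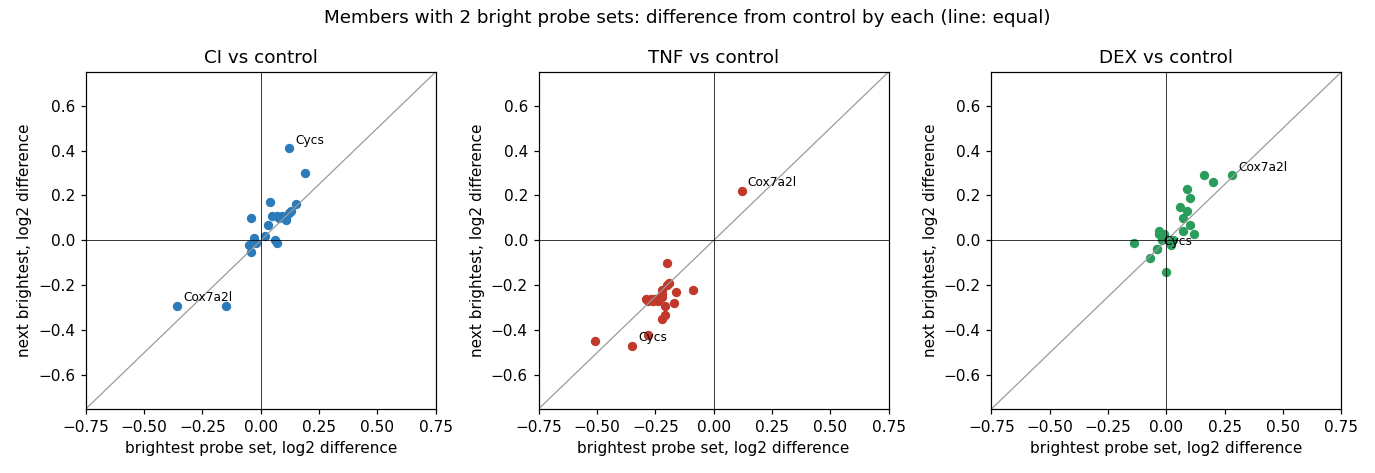
Log2 difference from the control mean by the brightest probe set (x axis) and the next brightest (y axis) for the 23 members with 2 bright probe sets, in CI, TNF and DEX. Each point is a gene and the diagonal marks equal values. In TNF all 23 points have the same sign on both axes, with Cox7a2l the one above 0, and Cycs lies off the diagonal in CI at 0.12 and 0.41.

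Of 28 tested genes of a list of assembly and maturation factors outside the member symbols, 2 rose and 7 fell with TNF, where 13.9% and 11.3% of all tested genes rose and fell. With CI 4 rose and 6 fell (8.38% and 8.88% of all tested genes), and with DEX 3 rose and 1 fell (14.0% and 13.6%). The median difference of the list was -0.10 in TNF, 0.05 in CI and 0.04 in DEX. With TNF Tmem70, which assembles ATP synthase, fell by 0.42 on the log2 scale (limma adjusted p = 0.000102), Ndufa4, a subunit bound to complex IV, by 0.37 (limma adjusted p = 0.000209) and the F1 chaperone Atpaf2 by 0.29 (limma adjusted p = 0.00167). Uqcc1 fell by 0.25 (limma adjusted p = 0.00545), and Uqcc2, which helps to translate mitochondrial cytochrome b, rose by 0.25 (limma adjusted p = 0.00699). With CI Cmc1 fell by 0.56 (limma adjusted p = 0.00106), and the cytochrome haem lyase Hccs rose by 0.29 (limma adjusted p = 0.00318). With DEX Uqcc3, an assembly factor of complex III, rose by 0.43 (limma adjusted p = 0.000119), Fastkd1 by 0.36 (limma adjusted p = 0.000963) and Tmem70 by 0.28 (limma adjusted p = 0.00276).

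Of 14 tested regulators of respiratory genes, 3 rose and 3 fell with TNF, 1 rose and 3 fell with CI, and 5 rose and 1 fell with DEX. Of all tested genes 13.9% rose and 11.3% fell with TNF, 8.38% and 8.88% with CI, and 14.0% and 13.6% with DEX. With so few genes all these counts but the 5 rises with DEX lie within 2 genes of what the shares give. The values of single regulators are given as description. Esrra encodes the nuclear receptor ERR alpha, which drives respiratory genes with PGC-1 coactivators. With TNF Esrra fell by 0.40 on the log2 scale (limma adjusted p = 5.05e-05), and the coactivator gene Ppargc1b fell by 0.33 (limma adjusted p = 0.00105). Nrip1 fell by 0.21 (limma adjusted p = 0.0112). Gabpa, an ETS factor subunit, rose with TNF by 0.24 (limma adjusted p = 0.00268), Pprc1 by 0.26 (limma adjusted p = 0.00576) and Nrf1 by 0.17 (limma adjusted p = 0.0262). With CI Gabpa fell by 0.31 (limma adjusted p = 0.00148), Ppargc1b by 0.35 (limma adjusted p = 0.00283) and Nrip1 by 0.28 (limma adjusted p = 0.00602). Pprc1 rose with CI by 0.21 (limma adjusted p = 0.0449). With DEX Tfb2m, a factor of mitochondrial transcription, rose by 0.50 (limma adjusted p = 0.000915), Myc by 0.69 (limma adjusted p = 0.00101) and Ppargc1b by 0.29 (limma adjusted p = 0.00206). Ppargc1a fell with DEX by 0.35 (limma adjusted p = 0.00257).

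Markers of cell state moved beside the TNF fall of the members. For the counts below, 13.9% of all tested genes rose and 11.3% fell with TNF. With CI 8.38% rose and 8.88% fell, and with DEX 14.0% and 13.6%. Of 9 tested adipocyte markers 4 fell with TNF and none rose, with Retn at -0.83, Cidec at -0.64, Slc2a4 at -0.54 and Cebpa at -0.53. The summed intensity of the list was 106837 to 107129 in control, 106932 to 107231 in CI, 88930 to 89891 in TNF and 102036 to 107578 in DEX. Sums of this kind are weighted to the brightest probe sets. Of 10 tested preadipocyte and fibroblast markers 5 rose with TNF, 5 fell with CI, and 1 rose and 7 fell with DEX. The sum over the 11 on the array was 62963 to 70080 in control, 53691 to 56700 in CI, 72505 to 73406 in TNF and 36296 to 42369 in DEX. The bright Col1a2 (-0.04) and Col3a1 (-0.14) did not pass with TNF. Of 8 tested macrophage and leukocyte markers 3 rose with TNF: Cd74 by 1.91, Cd14 by 1.48 and Lyz2 by 0.34 on the log2 scale. Adgre1 (-0.14), Cd68 (0.24), Csf1r (0.08), Mpeg1 (0.18) and Itgb2 (0.12) did not pass with TNF. Of the 8, 1 rose and 2 fell with CI, and 1 rose and 3 fell with DEX. The sum over the 10 on the array, with those under the dim filter, was 4794 to 4979 in control, 4081 to 4403 in CI, 6978 to 7384 in TNF and 3466 to 3916 in DEX. The part of these markers in the results for the members was not tested.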

How the data were processed

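Gene expression was measured in 3T3-L1 adipocytes on 11 Affymetrix arrays (control n = 3, CI n = 2, TNF n = 3, DEX n = 3), from 3 µg of total RNA per the labels' protocols. Titles gave groups and replicate numbers. The table deposited by the authors holds linear intensity values of 45101 probe sets, and 0 of its value columns belong to no sample. The background correction, summarisation and normalization behind these intensities were not given in the sources used here. Quartiles of the log2 intensities lay within 0.0763 of each other across arrays, so no further normalization was applied.

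The platform annotation gave 34945 probe sets 1 gene symbol and 932 several, and did not list 9160. The 64 control probe sets were left out. By gene identifier 34741 of the 34945 matched current RefSeq genes, and 0 symbols changed. Genes were read from the brightest probe set over all arrays. For 38 of the 60 members there was more than 1, and the brightest was a type that can share sequence with related transcripts (_s_at or _x_at) for 8 and 4 members. Cox14 shared its probe set with another symbol and was not used. A gene was left out where its mean was under 51.8, the 25th percentile of probe sets.

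Values were log2(intensity + 16), and fold changes on that scale understate the change of dim genes. All 11 arrays were fitted with group means in limma 3.58.1 (R 4.3.3; lmFit, contrasts.fit, eBayes, two-sided; 7 residual and 7.59 prior degrees of freedom) with Benjamini-Hochberg adjustment over 15622 genes. The script was tested on simulated data. The text names up to 4 passing members per complex and comparison by smallest adjusted p, and up to 3 per direction between treatments. It also names the members that went against their complex, and a set of isoform and core subunit genes. From the lists of other assembly factors and of regulators it names genes from the lowest adjusted p upward. The members and lists were chosen with earlier results of these data known. Alternatives were pseudocounts of 1 and 64, no dim filter or one at the median, quantile normalization, median centring, the mean of all probe sets, only the 2 groups compared, a replicate block, and leaving out each array. Precision is limited by the number of arrays.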

Additional observations from a re-analysis of the deposited data

How the results depend on the processing

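With all arrays kept, the number of passing members stayed within 1.5 times under every alternative run: 9 to 16 in CI against control, 39 to 45 in TNF, 13 to 18 in DEX, 41 to 48 in TNF against CI, 13 to 22 in DEX against CI and 41 to 46 in TNF against DEX. Leaving out 1 array gave 5 to 14 in CI, 26 to 43 in TNF, 9 to 16 in DEX, 35 to 47 in TNF against CI, 12 to 20 in DEX against CI and 34 to 45 in TNF against DEX. The lowest counts came without CI replicate 1 (CI, 5), TNF replicate 1 (TNF, 26) or control replicate 3 (TNF, 28), and control replicate 2 or DEX replicate 3 (DEX, 9). Over all tested genes the TNF calls went from 3931 to 2967 without TNF replicate 1 and 2868 without control replicate 3. The DEX calls went from 4316 to 3462 without control replicate 2 and 3760 without DEX replicate 3. The cause was not tested. Of the calls against control, 3 of 12 in CI, 24 of 43 in TNF and 5 of 17 in DEX passed under every alternative. No call changed its direction. Of 102 values against control that did not pass, 30 changed sign under some alternative, at most to a size of 0.08 on the log2 scale, and 18 passed under at least 1. With median centring 38 members fell and 1 rose with TNF, and with quantile normalization 44 fell and 0 rose.

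Fitted with the replicate number as a block, 16 members passed in CI, 43 in TNF, 16 in DEX, 47 in TNF against CI, 19 in DEX against CI and 45 in TNF against DEX. Over 15 pairs of arrays with the same number in different groups the deviations from group means correlated between -0.287 and 0.341 (median 0.0197), and 6 of 11 arrays lay closest to their own number, so the numbers were not shown to pair the arrays. Cox8b, Cox7c and Cox7a1 had the largest standard errors of the members, and the latter pair lay close to the dim filter, where signal over background limits the values. Cox7c and Cox7a1 have no value with the filter at the median.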
